A study of Mus musculus with 8 samples.

Results

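The genes described here are those of the oxytocin and vasopressin system: the peptide genes Oxt and Avp, their receptors Oxtr, Avpr1a and Avpr1b, and the enzymes Cd38 and Lnpep. Every probe that the array annotation names for one of these 7 genes was taken, which gave 11 of 56605 probes, in 7 of 36693 named genes. No probe was left out for its values, but the genes were chosen with earlier results of these data known. The study compared male BTBR/R mice (BTBRTF/ArtRbrc) with male B6 mice (C57BL/6J). BTBR/R carries the spontaneous mutations T, Itpr3tf and at. Its sister subline BTBR/J is often used as a model of autism, and the paper proposes a slight autistic tendency for BTBR/R. Total RNA from cerebral cortex and striatum of 4 mice per strain was hybridized to Agilent 1-colour arrays, 1 mouse per array, without any treatment. The age given was 4 months, apart from BTBR/R replicate 1 at 6 months. BTBR/R is a whole inbred strain, so that a difference from B6 cannot be assigned to any 1 of its alleles.

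Oxytocin and vasopressin are short peptides that differ little in sequence. They are cut from larger precursors in magnocellular and parvocellular neurons of the hypothalamus, which send axons to the pituitary and to many forebrain regions, cortex and striatum among them. There the peptides act through Gq-coupled receptors, which cells of these regions make themselves, and both are known for their roles in social behavior. The precursor genes Oxt and Avp lie next to each other, facing in opposite directions.

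In these samples, Oxt and Avp differed far more between mice of 1 strain than between the strains. Oxt had a 59.9-fold range over the 4 B6 mice by 1 probe and a 24.6-fold range by the other, and the highest signal was in 1 B6 mouse. The receptor genes detected in all mice were steady by comparison. Oxtr was 1.39-fold higher in BTBR/R mice with no overlap between the strains, and Avpr1a did not differ beyond the spread between mice. Cd38 was lower in BTBR/R mice by at least 1.94-fold, at the edge of the threshold, a call that 7 of 19 other settings lost, and the brighter probes of Lnpep differed by less than 0.1 on the log2 scale.

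The probes and promoters of the peptide genes are shown first. The probes were compared only with each other, and a match to the message of the other gene was not searched. Whether Oxt and Avp were read separately was therefore not tested. Positions of probes are on the plus or minus strand of mm9, as annotated on the array. The probe that reads the Oxt message across a splice junction (Oxt probe 1) spans chr2:130402038-130402358, plus strand, and the Avp probe, also across a splice junction, spans chr2:130406552-130406817, minus strand. Capitals mark a run of 5 bases, the greatest length that these probes share, and other runs of the same length are not marked.
Oxt probe 1: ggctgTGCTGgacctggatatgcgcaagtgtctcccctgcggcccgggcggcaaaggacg
Avp probe: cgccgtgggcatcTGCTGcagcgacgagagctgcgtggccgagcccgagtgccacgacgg

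Oxt probe 2 lies further along the same message, at chr2:130402665-130402724, and shared at most 6 bases in a row with the Avp probe. Over all pairs of the 11 probes, the longest shared run was 9 bases, between Oxt probe 2 and a probe of Lnpep.

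The 250 bases before the start of each peptide gene are given in GRCm38.p6 from RefSeq, chr2:130575919-130576168 on the plus strand for Oxt and chr2:130582589-130582838 on the minus strand for Avp. Both are shown because the genes moved together across mice. Capitals mark the nuclear receptor motif AGGTCA, searched on both strands, so that it may read TGACCT, and the longest run shared by both windows, CAGACATAAA.
Oxt promoter: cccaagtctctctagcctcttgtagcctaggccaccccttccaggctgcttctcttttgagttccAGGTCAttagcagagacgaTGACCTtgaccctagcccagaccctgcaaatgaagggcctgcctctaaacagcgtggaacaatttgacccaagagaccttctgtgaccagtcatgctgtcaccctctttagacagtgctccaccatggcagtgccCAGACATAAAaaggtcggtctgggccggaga
Avp promoter: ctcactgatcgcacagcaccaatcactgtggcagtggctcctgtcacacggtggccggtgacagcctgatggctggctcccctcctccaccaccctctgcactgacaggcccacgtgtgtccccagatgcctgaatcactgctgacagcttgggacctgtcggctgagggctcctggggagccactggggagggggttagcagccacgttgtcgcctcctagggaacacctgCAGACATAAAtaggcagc

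The motif stood 185 bases before the Oxt start, and again on the opposite strand 166 bases before it. These letters were not in the Avp window, and 14% of 32851 mouse windows of the same length held them. The shared run began 31 bases before the Oxt start and 18 bases before the Avp start. It was found in 18 windows, 0.0548% of the total, and it was picked after both windows had been read. The reference tables matched 6 of the 7 genes. Among the receptor and enzyme genes in them, only the Oxtr window held the motif, 98 bases before the start.

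Signals are given as the scaled signal, which is the log2 processed spot intensity minus the 75th percentile of its array, so that 0 is the level of that percentile and 1 unit is 2-fold. Levels of different probes are not comparable on this scale. Probes were compared with limma, and a probe was called at a Benjamini-Hochberg adjusted p below 0.05 over all 56605 probes together with a change of at least 2-fold. A probe is described as detected on an array where the scanner software marked it well above background. The share of probes detected was 64.5% to 66.8% on B6 arrays and 53.5% to 57.2% on BTBR/R arrays, and the lowest detected signal was 14.5 to 17.8 on the former and 36.1 to 47.1 on the latter. B6 arrays filled slide column 1 and BTBR/R arrays slide column 2, so an effect of the column and one of the strain cannot be told apart. The number of arrays limits the precision of every comparison, and in whole tissue fewer cells of a type cannot be told apart from less RNA per cell.

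Of the 11 probes, 7 were detected on all 8 arrays, and these belonged to Oxt, Oxtr, Avp, Avpr1a and Lnpep. Called were 2 of the 11 probes, that of Avpr1b higher and that of Cd38 lower, where 22.4% of all probes were called (20.2% higher and 2.27% lower). None of the 7 probes detected on all 8 arrays was called, against 2.2% of the 28547 probes detected on all 8 arrays (1.04% higher and 1.16% lower). At an adjusted p below 0.05 and any size of change, 1 of the 7 passed in limma, that of Oxtr, against 26.9%, and the same 1 passed at an unadjusted p below 0.05. The strains did not overlap for 1 of the 7, against 32.6%, and for 3 of all 11, against 42.4% of all probes. The median change of the 7 was 0.06 on the log2 scale, and that of all 28547 was 0.00.

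**Figure D1:**
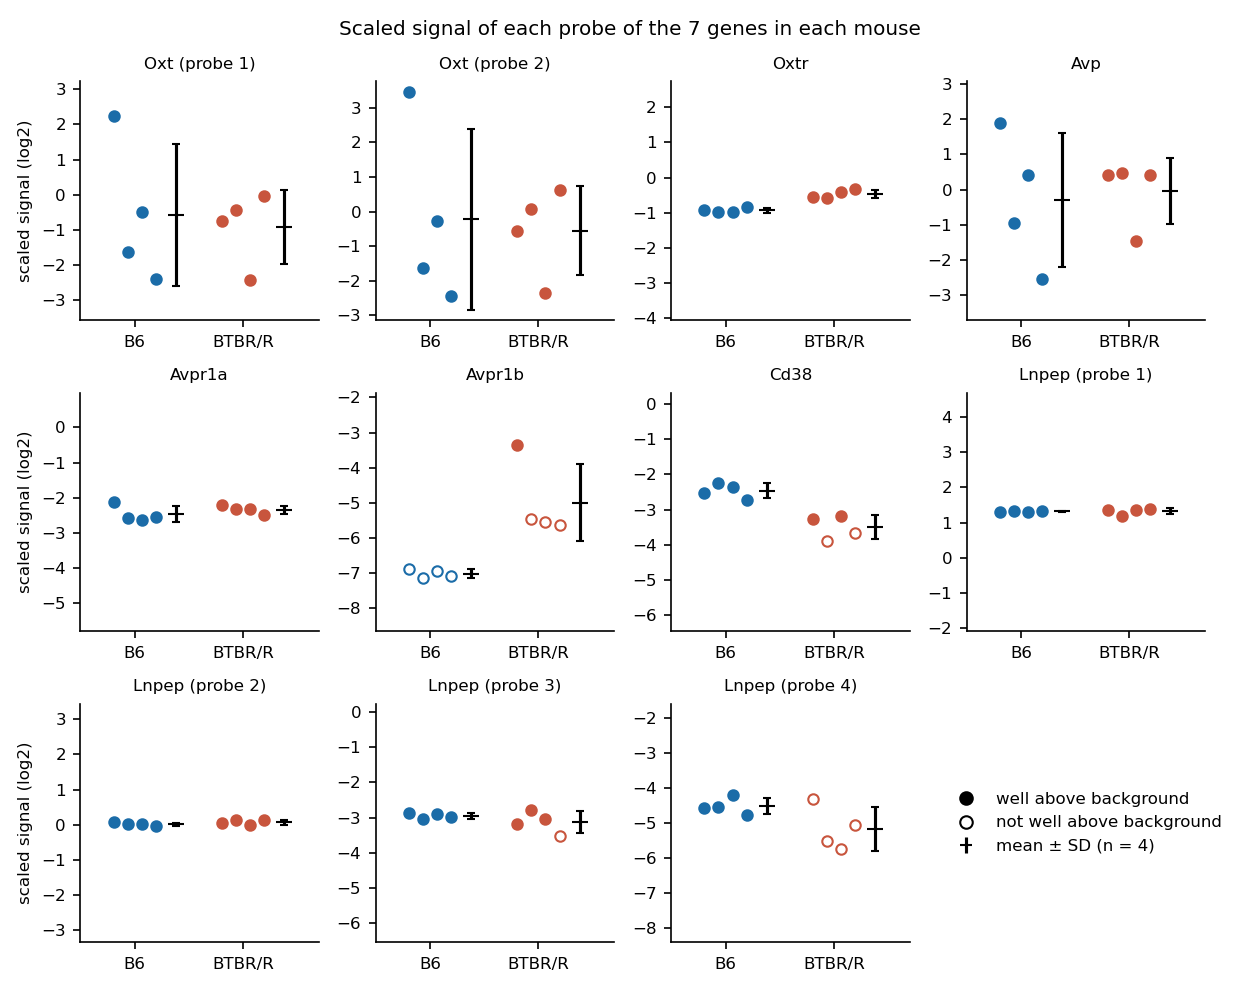
Scaled signal (log2) of each of the 11 probes in each mouse of the strains B6 and BTBR/R, with replicates 1 to 4 from left to right in each strain, filled points for detected and open points for undetected signals, and bars for the mean and SD of the 4 mice. Panels have different ranges on the vertical axis. Points of Oxt and Avp are scattered over several log2 units within each strain, those of Oxtr, Avpr1a and the brighter Lnpep probes lie close together, and most points of Avpr1b are open.

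Of the peptide genes, Oxt encodes the oxytocin precursor. In B6 mice 1 to 4, the scaled signal of Oxt probe 2 was 3.45, -1.62, -0.28 and -2.46. In BTBR/R mice 1 to 4 it was -0.56, 0.08, -2.36 and 0.62. B6 replicate 1 had the highest signal, B6 replicate 4 and BTBR/R replicate 3 had the lowest, and the strains overlapped over the whole BTBR/R range. The brightest mouse was 59.9-fold above the dimmest in B6 and 7.85-fold in BTBR/R. Oxt probe 1 gave 2.23, -1.62, -0.49 and -2.39 in B6 mice and -0.74, -0.43, -2.42 and -0.04 in BTBR/R mice. Its range was narrower, at 24.6-fold in B6 and 5.22-fold in BTBR/R. Both probes thus placed the same mouse of each strain highest, and they correlated over the 8 mice with a Pearson r of 0.997, given as a description.

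The strain difference in Oxt was small beside this spread. For probe 2 it was -0.33 on the log2 scale (BTBR/R minus B6, SE 1.32, limma adjusted p = 0.868), and for probe 1 it was -0.34 (SE 1.03, limma adjusted p = 0.823). The 95% interval of the BTBR/R to B6 ratio ran from 0.0931 to 6.81 for probe 2 and from 0.147 to 4.24 for probe 1, so that a difference of several fold in either direction was not detectable at this spread. Without B6 replicate 1 the sign turned, to 0.90 for probe 2 and 0.59 for probe 1, and it also turned without BTBR/R replicate 3, to 0.27 and 0.16.

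Avp encodes the precursor of arginine vasopressin. Its scaled signal was 1.90, -0.95, 0.43 and -2.54 in B6 mice 1 to 4. In BTBR/R mice 1 to 4 the signal was 0.41, 0.48, -1.46 and 0.41. As with Oxt, B6 replicate 1 was highest, B6 replicate 4 was lowest and BTBR/R replicate 3 was lowest of its strain. The range was 21.7-fold within B6 mice and 3.85-fold within BTBR/R mice. The strain difference was 0.25 on the log2 scale (SE 0.96, limma adjusted p = 0.861), with a 95% interval of the ratio from 0.249 to 5.69. Without B6 replicate 4 it was -0.50, and without B6 replicate 1 it was 0.98.

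Oxt and Avp moved together from mouse to mouse. Over the 8 mice, the Pearson r between Avp and Oxt was 0.93 for Oxt probe 1 and 0.92 for Oxt probe 2, with Spearman's rho of 0.90 and 0.93. Within B6 mice alone the r values were 0.95 and 0.94, and within BTBR/R mice alone 0.96 and 0.93. The points share array, tissue block and scaling, and all r values here are descriptions without a test. Matches of each probe to the message of the other gene were not searched.

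The peptide genes stood near the top of all genes in how much they varied between mice of 1 strain. The pooled within-strain SD was 2.06 for Oxt probe 2, 1.61 for Oxt probe 1 and 1.50 for Avp. They ranked 3, 8 and 9 of the 28547 probes detected on all 8 arrays, whose median SD was 0.0883. Oxtr had an SD of 0.102 (rank 11625), Avpr1a one of 0.186 (rank 3560), and the brighter Lnpep probes had 0.0662 and 0.0581, both below the median. The top 10 held, besides Oxt and Avp, Hcrt (2.47), Erdr1 (2.12), Omp (1.89), a pair of probes for Ttr (1.78 and 1.69), Gm34786 (1.63) and Ms4a15 (1.50), named after their values were seen. Hcrt encodes the orexin precursor of the lateral hypothalamus, Ttr is made by the choroid plexus, and Omp marks olfactory sensory neurons.

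**Figure D2:**
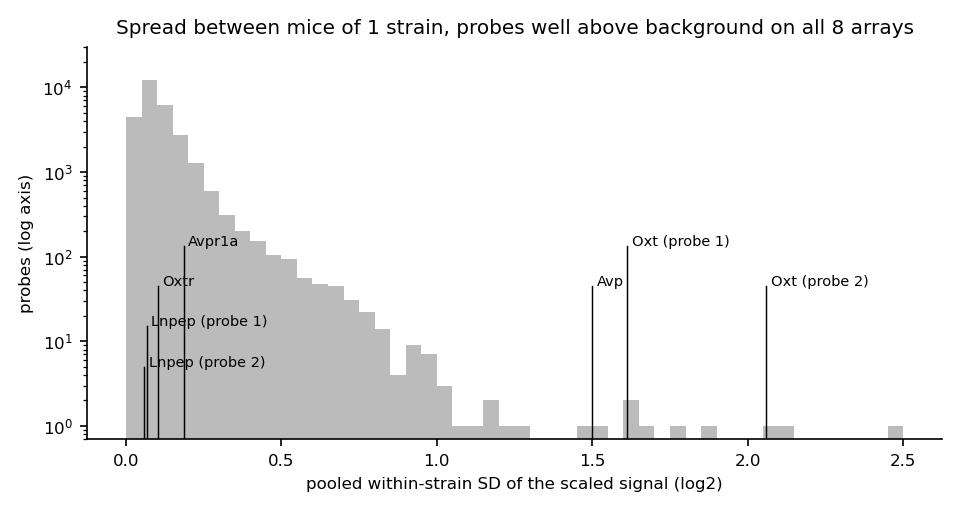
Histogram of the pooled within-strain SD (log2 scaled signal) of the 28547 probes detected on all 8 arrays, with the number of probes on a log axis and lines for the 7 probes of the system among them. Oxt probe 1, Oxt probe 2 and Avp lie at 1.50 to 2.06, far right of the median of 0.0883, and the Oxtr, Avpr1a and Lnpep probes lie at 0.0581 to 0.186.

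Markers of tissue next to the labelled regions also differed between mice. Hcrt was 2.26 in B6 replicate 1 and 1.34 in BTBR/R replicate 2, and between -3.31 and -2.95 in the other 6 mice. Pmch, which encodes the melanin-concentrating hormone of the lateral hypothalamus, was 0.83 and 0.87 in the same mice and between -5.35 and -4.24 in the others. B6 replicate 1 therefore held the highest Oxt, Avp and Hcrt signals. BTBR/R replicate 2 had high Hcrt and Pmch signals but an Oxt probe 2 signal of 0.08, below the 0.62 of BTBR/R replicate 4, where Hcrt was -3.14. Hcrt correlated with Oxt at an r of 0.72 and 0.74 for probes 1 and 2 over the 8 mice, at 0.92 and 0.94 within B6 mice and at 0.34 and 0.36 within BTBR/R mice.

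Of the 11 hypothalamus markers examined, 4 were detected on all 8 arrays (Hcrt, Pomc, Trh and Gal). The summed signal of the list, with each gene as a multiple of the 75th percentile, was 3.29 to 12.3 in B6 mice and 2.86 to 7.56 in BTBR/R mice, highest in B6 replicate 1 and BTBR/R replicate 2. Sim1, a factor needed for the neurons that make oxytocin, was detected only in B6 replicate 4, which had the lowest Oxt probe 2 signal and the second lowest Oxt probe 1 signal. Otp, a factor of the same lineage, was -2.14 in B6 replicate 1, the mouse with the highest Oxt, and -5.34 to -4.50 in the other B6 mice, and was detected in 3 B6 mice and no BTBR/R mouse. Gal, which encodes galanin, was likewise highest in B6 replicate 1, at 0.49 against -0.80 to -0.36 in the other mice, and correlated with Oxt at an r of 0.78 and 0.79 over the 8 mice, 0.93 and 0.95 within B6 mice and -0.20 and -0.26 within BTBR/R mice. The 5 thalamus markers, all detected on all 8 arrays, summed to 10.03 in B6 replicate 1 and 6.55 in BTBR/R replicate 2, against 3.24 to 3.79 in the other mice. Choroid plexus markers, 6 of 6 detected on all 8 arrays, summed to 2.70 to 41.3 in B6 mice and 6.16 to 25.7 in BTBR/R mice. The 8 cortex markers were all detected on all 8 arrays and summed to 29.5 to 34.1 in B6 mice and 31.5 to 35.5 in BTBR/R mice, and the 9 striatum markers, likewise all detected, to 200.1 to 214 and 182 to 209, so that the markers of the labelled tissue were present in every mouse. The part of neighbouring tissue in the Oxt and Avp signals was not tested. Without B6 replicate 1 and BTBR/R replicate 2, left out after the data were seen, the strain difference was 0.69 for Oxt probe 2, 0.43 for Oxt probe 1 and 0.81 for Avp, with limma adjusted p values of 0.620, 0.714 and 0.554.

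**Figure D3:**
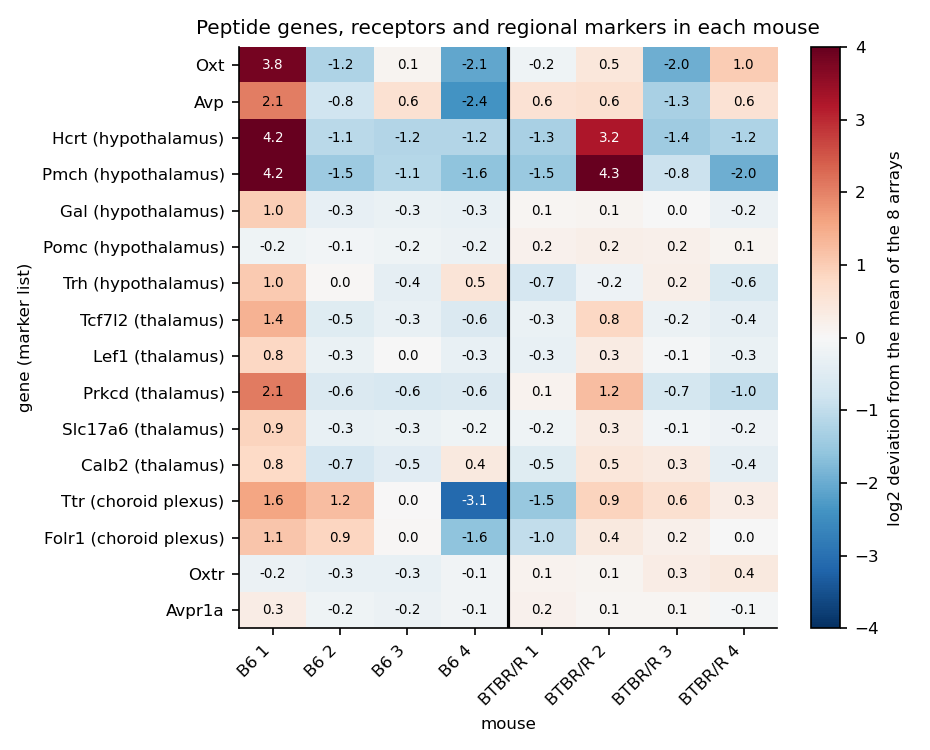
Deviation of each mouse from the mean of the 8 arrays (log2 scaled signal, colour and printed value) for Oxt (probe 2), Avp, selected markers of hypothalamus, thalamus and choroid plexus, Oxtr and Avpr1a, with B6 mice left and BTBR/R mice right of the line. Oxt and Avp share the high B6 replicate 1 and the low B6 replicate 4 and BTBR/R replicate 3, Hcrt and Pmch stand high in B6 replicate 1 and BTBR/R replicate 2, and Oxtr and Avpr1a stay within 0.5 of their means. Pmch was detected on 3 B6 arrays and 1 BTBR/R array.

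Of the receptors, Oxtr encodes the oxytocin receptor, and its probe lies at chr6:112423686-112423745 on the minus strand. Its last 30 bases are shown because they hold AATAAA (capitals), the usual polyadenylation signal, which stands near the end of most messages.
Oxtr probe, last 30 bases: cataaatggtgcacttAATAAAcatttttt

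The scaled signal of Oxtr was -0.94, -0.99, -0.98 and -0.83 in B6 mice 1 to 4 and -0.56, -0.57, -0.40 and -0.32 in BTBR/R mice 1 to 4. Every BTBR/R mouse was above every B6 mouse. The difference was 0.47 on the log2 scale (SE 0.07, limma adjusted p = 0.00181), a 1.39-fold higher level with a 95% interval of 1.23 to 1.57, which is under the 2-fold threshold. It stayed between 0.42 and 0.58 in each of the settings tried, with adjusted p values from 0.000496 to 0.00949. Of the probes detected on all 8 arrays, 13% were higher in BTBR/R mice at an adjusted p below 0.05. Oxtr had 1 probe, so that no separate probe could be set beside it. It did not follow its ligand, with an r of -0.18 and -0.14 to the Oxt probes over the 8 mice.

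Avpr1a encodes the vasopressin receptor of the brain that is most widely expressed, measured at chr10:121890416-121890475. It was -2.11, -2.56, -2.63 and -2.54 in B6 mice 1 to 4 and -2.22, -2.31, -2.34 and -2.49 in BTBR/R mice 1 to 4. The strains overlapped, and B6 replicate 1 was again the highest mouse. The difference of 0.12 (SE 0.12, limma adjusted p = 0.472) had a 95% interval of the ratio from 0.890 to 1.33, so that a 2-fold change in either direction lay outside it. Without B6 replicate 1 the difference was 0.24 (SE 0.08, limma adjusted p = 0.0510).

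Avpr1b encodes the vasopressin receptor best known from the pituitary and from hippocampal field CA2. Its probe, at chr1:133508515-133508574, also ends with a polyadenylation signal, in capitals.
Avpr1b probe, last 30 bases: gaattataagatgaAATAAAtactttcctc

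Avpr1b was detected only in BTBR/R replicate 1, the 6-month-old mouse. Its scaled signal was -6.87, -7.15, -6.95 and -7.08 in B6 mice and -3.37, -5.46, -5.53 and -5.64 in BTBR/R mice. The probe was called higher (limma adjusted p = 0.0157), but 3 of the 4 BTBR/R values were undetected and the BTBR/R arrays had higher detection limits, so no fold is given. Of all probes, 17.8% were called higher in BTBR/R mice and detected on no array. The call was lost with normexp background correction, where the difference was 0.36, with quantile normalization (1.40), when signals were raised to the highest detection limit (0.05), and without B6 replicate 1 and BTBR/R replicate 2 (2.22, adjusted p = 0.0535). A related receptor gene, Avpr2, which acts in the kidney, was detected in no mouse, with -7.40 to -7.05 in B6 mice and -6.06 to -5.68 in BTBR/R mice.

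**Figure D4:**
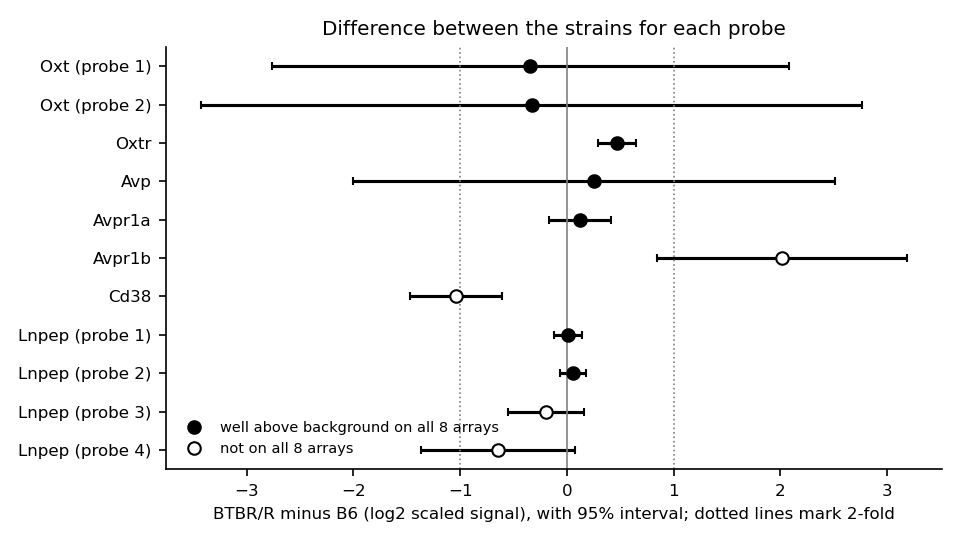
Difference between the strains (BTBR/R minus B6, log2 scaled signal) for each of the 11 probes, with 95% intervals from limma, filled points for probes detected on all 8 arrays and open points for the others, and dotted lines at 2-fold. The intervals of Oxt and Avp span more than 2-fold on both sides of 0, that of Oxtr lies between 0 and 1, and that of Cd38 below 0.

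Cd38 encodes an ectoenzyme that makes cyclic ADP-ribose from NAD and is known to be needed for oxytocin release in mice. Its probe, at chr5:44302865-44302924, gave -2.53, -2.25, -2.34 and -2.72 in B6 mice 1 to 4 and -3.27, -3.88, -3.17 and -3.68 in BTBR/R mice 1 to 4. The strains did not overlap, and in BTBR/R mice the probe was detected in replicates 1 and 3. It was called lower (-1.04, SE 0.18, limma adjusted p = 0.00308), at least 1.94-fold. The size lay at the threshold, and the call was lost without B6 replicate 2 (-0.97), without BTBR/R replicate 2 (-0.91) or replicate 4 (-0.98), without B6 replicate 1 and BTBR/R replicate 2 (-0.93), with a floor at the highest detection limit (-0.92), with spike-in scaling (-0.93) and after normexp correction (-0.39). Its adjusted p stayed between 0.00117 and 0.0165 in all settings tried. Cd38 is among the genes that the study drew from these samples, so this is not independent evidence.

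Markers of cells that can make Cd38 were measured beside it. Astrocyte markers, 6 of 6 detected on all 8 arrays, summed to 57.0 to 62.9 in B6 mice and 49.2 to 56.0 in BTBR/R mice, with 3 lower and 0 higher at an adjusted p below 0.05. Microglia markers, 6 of 6, summed to 47.3 to 49.3 and 40.7 to 44.7, with 3 lower and 1 higher, and endothelial markers, 6 of 6, to 16.5 to 17.8 and 13.1 to 15.3, with 2 lower and 0 higher. Over all probes detected on all 8 arrays, 26.9% passed at this adjusted p (13% higher), and 32.6% had strains that did not overlap. The sums of the strains did not overlap, but this rested on single genes in the microglia and astrocyte lists. Without Cx3cr1 the microglia sums were 37.3 to 38.9 in B6 mice and 34.8 to 37.8 in BTBR/R mice, which overlap, and the probes of Cx3cr1 were opposed, at -0.71 for the reference probe and 1.71 for the other, both detected on all 8 arrays. The astrocyte sums overlapped without Aldh1l1 (41.2 to 44.0 and 35.7 to 41.4) or without Slc1a2 (36.7 to 40.3 and 31.2 to 37.0), and the endothelial sums did not overlap whichever gene was left out. Their part in the Cd38 difference was not tested. Bst1, the close relative of Cd38, was detected in no mouse.

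Lnpep encodes the placental leucine aminopeptidase, also called oxytocinase, which cleaves both peptides. It had 4 probes on the minus strand of chromosome 17. Probe 1 (chr17:17658625-17658684) gave 1.29, 1.33, 1.30 and 1.34 in B6 mice and 1.37, 1.19, 1.35 and 1.39 in BTBR/R mice, and differed by 0.01 between the strains (SE 0.06, limma adjusted p = 0.922). Probe 2 (chr17:17666776-17666835) ranged from -0.04 to 0.07 in B6 mice and from -0.02 to 0.13 in BTBR/R mice, with a difference of 0.06 (SE 0.05, limma adjusted p = 0.421). The 95% intervals of the ratio were 0.918 to 1.10 and 0.956 to 1.13, the narrowest of the system. Probe 3 (chr17:17689804-17689863) was detected in 3 BTBR/R mice and differed by -0.19 (limma adjusted p = 0.356). Probe 4 (chr17:17706819-17706878) was detected in all B6 mice but not in BTBR/R mice, at -4.76 to -4.20 and -5.75 to -4.32, and was not called (-0.65, limma adjusted p = 0.139).

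Within 200 kb of a member probe, the annotation placed 33 probes of other genes near Oxt, 35 near Avp, 16 near Oxtr, 2 near Avpr1a, 6 near Avpr1b, 11 near Cd38 and 12 near Lnpep. Of these, 0 were called and detected on every array of the brighter strain, against 2.74% of all probes. Called higher with detection on only some BTBR/R arrays and no B6 array were 4930402H24Rik (2 arrays, 1.80, limma adjusted p = 0.0270) and 4930473A02Rik (1 array) near Oxt and Avp, and Gm35649 (1 array) near Oxtr. The other called neighbours were detected on no array. The windows of Oxt and Avp overlap, and each is a neighbour of the other, with 3828 bases between the nearest probes.

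The genes most like each member over the 8 mice were also looked up, by Pearson r among 18800 genes whose reference probe was detected on all 8 arrays. For Oxt they were Men1 (r = 0.95) and Rasd1 (r = 0.93). Rasd1 ran from -2.62 to -1.19 in B6 mice and from -2.57 to -1.89 in BTBR/R mice, highest in B6 replicate 1. For Avp they were an unnamed transcript of chromosome 11 (r = 0.95) and Oxt itself (r = 0.92). Oxtr was closest to Ptcd2 and Nudcd3 (both r = 0.998), Avpr1a to Nrsn2 (r = 0.99) and Zfp335os (r = 0.97), and Lnpep to Cep57 (r = 0.99) and Ppp1r37 (r = 0.97). These are descriptions, and the highest of so many values over 8 mice is high by selection.

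Other genes of the pathway were described by 88 genes in 5 lists, each by its best detected probe, 84 of them detected on all 8 arrays. The lists do not cover the whole pathway. In its oxytocin signaling pathway the study reported more lower than higher genes, so the counts below hold for the listed genes only. Of the 88 genes, 3 were called higher with detection on every BTBR/R array and 0 lower (3.41%), against 2.67% of all genes (0.64% higher and 2.02% lower). The median change of the 84 was 0.01 on the log2 scale, beside 0.00 for the 18801 genes detected on all 8 arrays. Of these 18801 genes, 28.3% passed at an adjusted p below 0.05 (13.9% higher and 14.4% lower) and 2.23% were called, and the counts of each list are read against these shares. In every setting tried, 3 of the 84 were called higher and 0 lower.

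Neuropeptide precursors are cut by the convertases Pcsk1 and Pcsk2, trimmed by Cpe and amidated by Pam, which gives oxytocin and vasopressin their amidated ends. Of the 13 genes, all detected on all 8 arrays, 4 were higher and 1 lower at an adjusted p below 0.05, and 2 of these passed 2-fold, where 28.3% and 2.23% of all such genes did. The reference probe of Pam (chr1:99718052-99718111) gave -0.55, -0.40, -0.46 and -0.55 in B6 mice 1 to 4 and 1.45, 1.68, 1.40 and 1.61 in BTBR/R mice 1 to 4. Every BTBR/R mouse was more than 1 unit above every B6 mouse, a 4.07-fold difference (2.03, SE 0.08, limma adjusted p = 5.81e-06).

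The other probes of Pam did not follow it alike. The probe at chr1:99718412-99718471 was 3.21-fold higher in BTBR/R mice, from -2.65 ± 0.10 to -0.97 ± 0.17 (SD, n = 4). The probe at chr1:99722492-99722551 was lower, from -0.01 ± 0.05 to -0.51 ± 0.12 (SD, n = 4), a difference of -0.50 (limma adjusted p = 0.00086). The probe at chr1:99950569-99950628 differed by 0.20, and a pair of further probes were undetected in BTBR/R mice. No single direction therefore held for Pam as a gene, since detected probes pointed both ways.

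Scg5, which encodes the chaperone 7B2 of Pcsk2, was 5.08, 5.04, 4.99 and 5.18 in B6 mice and 6.21, 6.19, 6.29 and 6.32 in BTBR/R mice. The level was 2.26-fold higher (1.18, SE 0.06, limma adjusted p = 1.95e-05) and had 1 probe. Pcsk1 was 1.39-fold higher (0.48, limma adjusted p = 0.000411) and Cadps2, a factor for the release of dense-core vesicles, differed by 0.25, while Cpe differed by -0.19. Pcsk2 (0.05), Chgb (-0.02) and Scg2 (0.02) did not pass the test.

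The steps after the receptors were described by further lists. Among 16 genes for G proteins, phospholipase C and calcium release, 0 were called, and 2 were higher and 1 lower at an adjusted p below 0.05, a share below the 28.3% of all genes. Gnaq, the G protein alpha subunit through which the receptors act, differed by -0.07 (limma adjusted p = 0.239), Gna11 by 0.13 (adjusted p = 0.0502) and Plcb1 by 0.00 (adjusted p = 0.976), with -0.49 to 0.02 at its other 4 detected probes. Of the calcium release channels, Ryr2 was higher by 0.48 at its reference probe and differed by 0.00 at its other detected probe, and Ryr3 was lower at both, with changes of -0.20 and -0.19. Itpr3, which is mutated in BTBR/R mice, differed by -0.02 (adjusted p = 0.795). Of 10 genes of receptor regulation, 0 were called, and 3 were higher and 1 lower at an adjusted p below 0.05, by 0.20 at most, beside 13.9% higher and 14.4% lower among all genes. Of 10 related receptors and ectoenzymes, 6 were detected on all 8 arrays, of which 1 was lower at an adjusted p below 0.05, and none of these 6 was called.

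Of 39 kinases and targets, all detected on all 8 arrays, 1 was called, and 5 were higher and 4 lower at an adjusted p below 0.05, shares near the 2.23% and 28.3% of all genes. The called gene was Fos, an immediate early gene, with -0.41, 0.26, 1.14 and -0.27 in B6 mice and 1.98, 2.15, 1.79 and 1.73 in BTBR/R mice, 3.33-fold higher (1.74, SE 0.33, limma adjusted p = 0.00474). Pam, Scg5 and Fos are also among the genes the study drew from these samples, so their calls are not independent evidence. Ptgs2, which encodes cyclooxygenase 2 and is induced by activity, was higher by 0.88 (adjusted p = 0.00412). Calm3 (0.51) was higher and Nfatc1 (-0.37) lower, both under 2-fold. For Nfatc2 and Mylk the reference probes were lower (-0.61 and -0.46), but the other probes detected on all 8 arrays differed by 0.34 for Nfatc2 and by -0.37 to 0.01 for Mylk, so no direction is given for these genes. The kinases Mapk3 (0.04), Prkca (-0.06) and Camk2a (0.03) did not pass the test by their reference probes, while the other probes detected on all 8 arrays differed by -0.52 for Prkca and by 0.09 to 0.33 for Camk2a.

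**Figure D5:**
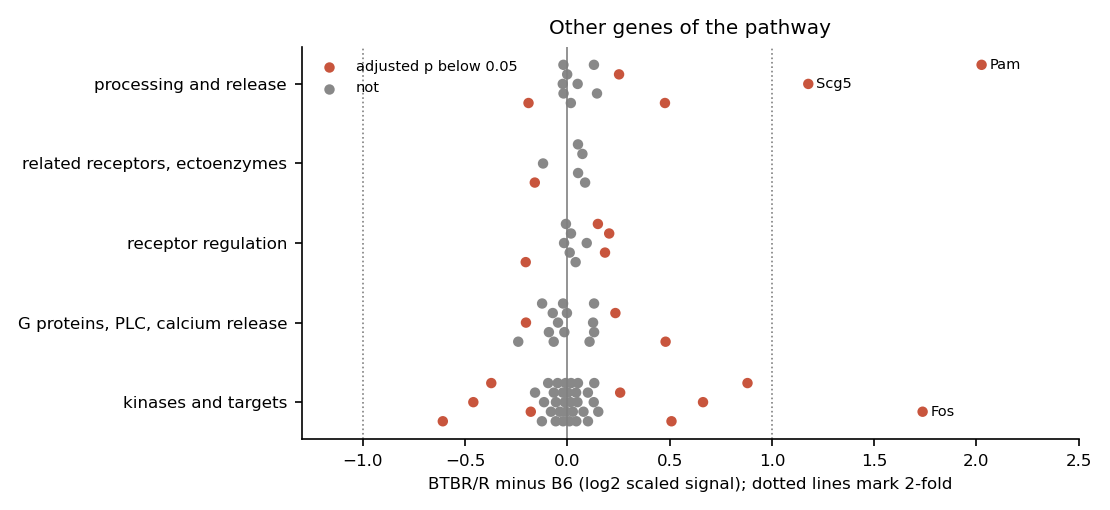
Difference between the strains (BTBR/R minus B6, log2 scaled signal) for the 84 pathway genes detected on all 8 arrays, by list, in red where the limma adjusted p was below 0.05, with dotted lines at 2-fold. Pam, Scg5 and Fos lie beyond 2-fold, and the other genes lie within it, from -0.61 to 0.88.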

How the data were processed

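RNA from cerebral cortex and striatum of 4 BTBR/R and 4 B6 mice was measured on 8 arrays, grouped by the strain in the labels. The authors deposited the Feature Extraction 10.7.3.1 intensity of every spot, background-subtracted and spatially detrended, with surrogate values for low signals, beside flags, and GeneSpring log2 values, each column of which lay within 0.01 of the log2 processed signal less a constant for at least 99.97% of probes. Control and outlier spots were left out here, spots of a probe were averaged, and log2 signals minus the 75th percentile of each array were compared with limma 3.58.1 (lmFit, eBayes) in R 4.3.3, after tests on simulated data. The rest used pandas 2.3.3 and numpy 2.4.6, with matplotlib 3.10.9 and scipy 1.17.1, in Python 3.11.15. A fold is a lower bound where a probe was undetected on some arrays of a strain. For the bound, each array of the dimmer strain took its own signal or its detection limit, whichever was higher. A reference probe was the one detected on most arrays, then the brightest. All member probes were named, called and detected list genes (at most 6 per list), Avpr2, Bst1, Gnaq, Gna11 and Plcb1, the 2 genes most like each member, and called neighbours within 200 kb. Other genes were named after their values were seen. Members and lists were chosen with earlier results of these data known. Alternatives were normexp (offset 50), quantile normalization, scaling by detected probes or 7 spike-ins, the authors' log2 values, a dim-probe filter, a detection floor, the methods' t-test, limma trend, a replicate block and leaving out mice. All arrays shared 1 slide and 1 scan. No probe was saturated. Positions are those of the arrays (mm9). A few genes of the lists are counted but not reported by name here.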

Additional observations from a re-analysis of the deposited data

Results flagged for a closer look

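In 3 of 22 groups of 4 mice, counted over the 11 probes and both strains, a single mouse lay far from the other 3 by the gap between it and its nearest neighbour, divided by the range of the group. For independent groups of normally distributed values, chance gives about 1 in 20. The groups here share the same mice and include undetected values, so the count cannot be set against that rate. The gap was 0.963 of the range for Avp in BTBR/R mice, where replicate 3 was lowest and the other 3 lay between 0.41 and 0.48. It was 0.921 for Avpr1b in BTBR/R mice, where replicate 1, the 6-month-old mouse and the one with a detected signal, was highest. It was 0.833 for Lnpep probe 1 in BTBR/R mice, where replicate 2 was lowest at 1.19.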

How the results depend on the processing

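Over all probes, 12697 were called (11413 higher, 1284 lower), 563 with normexp background correction (231 higher, 332 lower), 2200 with quantile normalization (544 and 1656), 1557 with dim probes left out (362 and 1195) and 789 with a floor at the highest detection limit (276 and 513). Of the member probes, 2 were called, with 0 under normexp and under the floor, 1 under quantile normalization and with dim probes left out (Cd38), and 1 under spike-in scaling (Avpr1b). Leaving out 1 mouse at a time gave 11792 to 12929 calls overall and 1 to 2 among the members, where Cd38 was lost without replicate 2 of B6 or replicates 2 or 4 of BTBR/R. Without B6 replicate 1 and BTBR/R replicate 2, chosen after seeing the data, 0 member probes were called and 11421 overall. The pathway counts, the Oxtr difference and the absence of a call for Oxt, Avp, Avpr1a and Lnpep held in each of these settings. The cause of the moves was not tested. Spike-in scaling raised the median change of probes detected on all 8 arrays to 0.12. With a replicate block, 11693 probes were called overall and 2 among the members, and it changed no call among the pathway genes or for Kiss1 and Pde10a. The call of Pde10a was lost under spike-in scaling (-0.95). Equal numbers share no source in the labels, and same-numbered mice deviated together with correlations of 0.00, -0.07, -0.04 and 0.16, so mice were not paired. Dim signals, such as those of Avpr1b and Lnpep probe 4, are limited by the higher detection limit of the BTBR/R arrays.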

Other observations

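Among the marker lists used to check the tissue, Kiss1 and Pde10a were called lower with detection in every B6 mouse, and both are among the genes the study drew from these samples. Kiss1, which encodes the kisspeptin precursor of hypothalamic neurons, was -1.45, -1.06, -0.93 and -1.04 in B6 mice 1 to 4 and detected on no BTBR/R array, at least 6.02-fold lower (limma adjusted p = 2.76e-05). A second Kiss1 probe was at least 2.73-fold lower. B6 replicate 1, which had the highest Oxt and Hcrt signals, had the lowest Kiss1 signal of its strain by both probes. Pde10a, a phosphodiesterase of striatal projection neurons, was 3.91 ± 0.04 in B6 mice and 2.85 ± 0.08 in BTBR/R mice (SD, n = 4), 2.09-fold lower, while the other 8 striatum markers differed by -0.06 to 0.02 by their reference probes and by -0.31 to 0.12 by their other probes detected on all 8 arrays.

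Pomc, the precursor gene of the melanocortins, was higher in BTBR/R mice by 0.35 on the log2 scale (limma adjusted p = 0.000832), with no overlap between the strains, while Hcrt, Trh and Gal did not pass the test (-0.37, -0.62 and -0.04).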
